A study of Oryza sativa with 24 samples.

Results

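A gene was called on in a rice line when its deposited expression value was at least 5 in all 6 anther libraries of that line, and off when the value was below 0.5 in all 6. The genes described here were on in at least 1 line and off in at least 1 other. They numbered 441 of the 32511 gene identifiers that stand on 1 row of the deposited files, or 1.36%. Of the 11804 identifiers that were on in at least 1 line, 3.75% were such genes. The members were chosen by these levels, so which line is on or off is given below as a description, with no test.

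The 4 lines were Nipponbare, Sasanishiki, PL9 and Lambayeque1, all labelled as genotypes with no further allele, transgene or agent. Each line had 3 libraries from untreated anthers and 3 from anthers of plants held at 12 °C for 4 days at the booting stage, when the pollen mother cells have just given rise to microspores. All plants were raised in a greenhouse set to 25 °C in the day and 19 °C in the night, with 20 plants per pot and side shoots removed. Replicate numbers run to 3 in the titles, but the series text mentions 2 replicates, and n is taken from the titles. The labels do not state that replicate libraries are from different plants, and the spread behind each p-value may therefore be technical.

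Cultivated rice lines differ in which genes they carry, and a gene that is present and transcribed in one cultivar can be missing, broken or silent in another. Disease resistance genes, transposon-derived sequences and recently duplicated genes are known for such presence and absence differences between cultivars. Nipponbare is the japonica cultivar from which the rice reference genome was made, and the submitters' processing notes name IRGSP-1.0, a build of that genome. A gene that a line lacks, a gene that it does not transcribe and a gene whose sequence differs from the reference can all give a low value, and these cannot be told apart from the deposited values. Genes that are carried by other lines and not by the reference have no row.

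The label says anther, and most of its markers had a value of at least 1 in all 24 libraries, at levels that varied widely. The stamen identity genes OsMADS16 and OsMADS2 lay at 830.4 to 1837 and at 464.9 to 1702 across the 24 libraries, and the tapetum genes OsC6 and RAFTIN1 at 3462 to 35910 and at 712.2 to 3840. OsC4, another tapetum gene, ran from 7.18 to 86240, EAT1 from 31.3 to 348.6 and MSP1 from 3.20 to 22.5. CYP703A3, of pollen wall formation, had a value of at least 1 in 17 of the 24 libraries, with a range of 0.208 to 2196. CYP704B2, whose name is not in the reference table, had one in 21, with a range of 0.227 to 4981. Of 3 markers of other floret parts, the pistil genes DL and OsMADS13 reached at most 2.65 and 1.81, and OsMADS6 reached 12.5. Between 17563 and 19303 identifiers had a value of at least 1 in a library. The lowest correlation between 2 libraries of a group was 0.854, between libraries 1 and 2 of PL9 after cold.

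The libraries labelled Sasanishiki were those in which these genes were most often off. The identity of each line rests on the labels and was not checked here. Sasanishiki was off for 341 of the 441 members (77.3%), PL9 for 101 (22.9%), Nipponbare for 79 (17.9%) and Lambayeque1 for 49 (11.1%). Members were on in 303 cases in Lambayeque1, 276 in Nipponbare, 256 in PL9 and 79 in Sasanishiki. The count of all identifiers that were off was also highest in Sasanishiki, but in proportion it differed far less between lines. It was 9180 in Sasanishiki, 8772 in PL9, 8485 in Lambayeque1 and 7956 in Nipponbare. Sasanishiki also had the fewest identifiers on, 9463, against 9748 in PL9, 9969 in Lambayeque1 and 10065 in Nipponbare. How far the members' counts follow from these differences over all identifiers was not tested.

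Between ordered pairs of lines the difference ran mostly one way. Of the identifiers on in Lambayeque1, 277 (2.78%) were off in Sasanishiki, and of those on in Nipponbare and PL9, 258 (2.56%) and 244 (2.5%) were. Of the identifiers on in Sasanishiki, 54 (0.57%) were off in Nipponbare, 59 (0.62%) in PL9 and 39 (0.41%) in Lambayeque1. Among the other lines the pairs with the fewest were Nipponbare on with Lambayeque1 off and PL9 on with Lambayeque1 off, with 8 members each. The plot of shares by line shows the 3 tall bars of Sasanishiki.

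**Figure D1:**
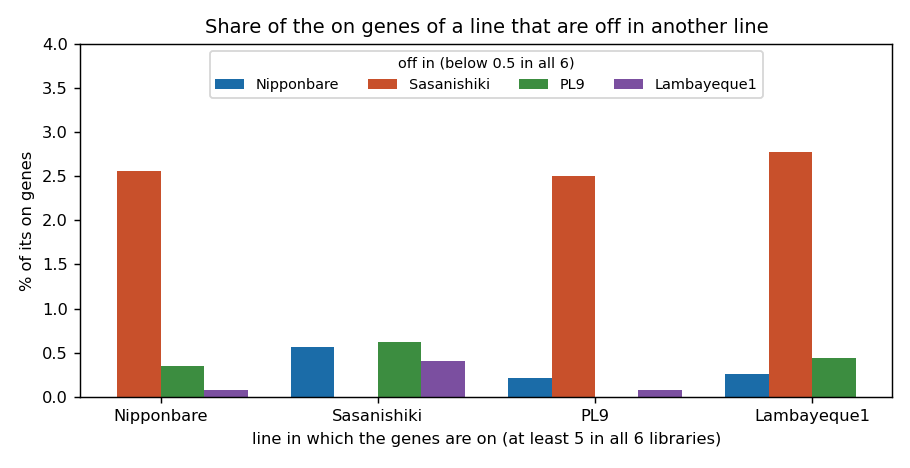
Share of the identifiers on in each line (x axis) that were off in another line (bar colour), as a percentage of the identifiers on. The bars for Sasanishiki as the off line stand at 2.5% to 2.78%, and no other bar exceeds 0.62%.

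Members fell into 41 patterns of lines on and off, of which 8 held a single member. The largest pattern, on in Nipponbare, PL9 and Lambayeque1 and off in Sasanishiki, held 183 members (41.5%). The mirror pattern, on in Sasanishiki and off in the other lines, came next with 28. A further 25 members were on in Lambayeque1 and off in Sasanishiki with the remaining lines between the thresholds, 23 were on in Nipponbare and off in Sasanishiki, and 18 were on in PL9 and off in Sasanishiki. Patterns with Nipponbare and Lambayeque1 on held 16 members with Sasanishiki off and PL9 between the thresholds, and 16 with both Sasanishiki and PL9 off. In all, 258 members were on or off in every line, and 183 had at least 1 line between the thresholds.

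**Figure D2:**
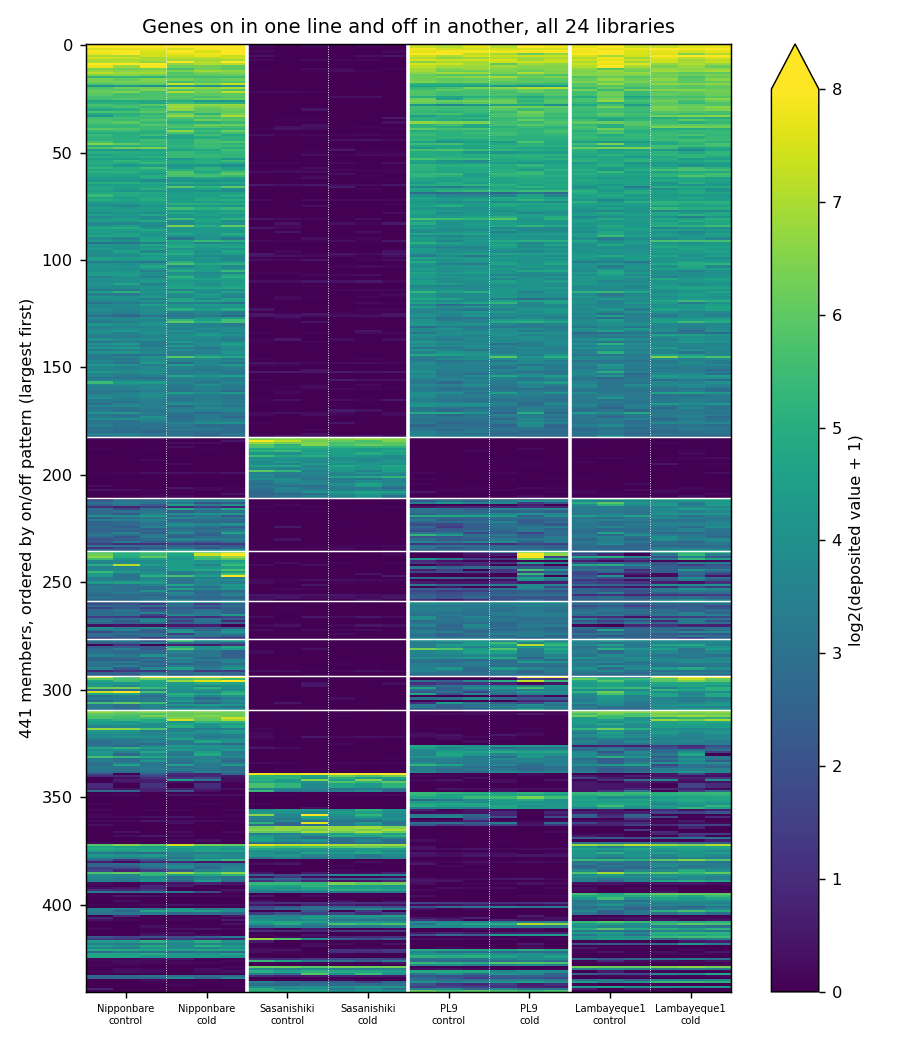
Heatmap of the 441 members (rows, ordered by pattern, the largest pattern at the top) in the 24 libraries (columns, by line and treatment), coloured by log2(deposited value + 1). The top block of 183 members is dark in the 6 Sasanishiki libraries and bright in the other 18, and the block under it of 28 members is bright in Sasanishiki.

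Many of the low values were exact zeros, as they were among all identifiers that were off. In Sasanishiki, 166 of the 341 off members (48.7%) were listed at 0 in all 6 libraries. In PL9 this held for 45 of 101 (44.6%), in Nipponbare for 30 of 79 (38.0%) and in Lambayeque1 for 15 of 49 (30.6%). Over all identifiers off in the same line the shares were 41.0% in Sasanishiki, 39.9% in PL9, 33.3% in Nipponbare and 32.0% in Lambayeque1. The differences between these and the members' shares were not tested. Over all members, 186 were listed at 0 in every library of every line where they were off.

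Where they were on, the members had lower levels than identifiers on in general. Their median level was 17.6 in Nipponbare, 18.1 in Sasanishiki, 16.1 in PL9 and 17.5 in Lambayeque1. Over all identifiers on in the same line the medians were 23.3, 23.3, 22.4 and 22.9. In 34 members the strongest line had at least 50 in its lowest library, and in 186 that lowest value was under 10. Just inside the upper threshold, Os11g0297000, Os02g0142060 and Os11g0617800 were members by lowest values of 5.007, 5.013 and 5.014. Just outside it, Os04g0520800, Os07g0442800 and Os02g0799400 missed by values of 4.999, 4.995 and 4.994. At the lower threshold Os02g0147600, Os06g0325602 and Os03g0144200 were inside with highest off values of 0.4995, 0.4983 and 0.4971, and Os08g0129300, Os01g0152300 and Os01g0807266 were outside with 0.504, 0.512 and 0.516.

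The deposited files do not pair identifiers with gene names, so most members are given by identifier and without a role. In the largest pattern Os11g0272800 was among the strongest. Its untreated values were 189, 199 and 216 in Nipponbare, 238, 171 and 174 in PL9, and 246, 212 and 223 in Lambayeque1. After cold they were 176, 240.0 and 242 in Nipponbare, 171, 176 and 177 in PL9, and 257, 238 and 269.8 in Lambayeque1. All 6 Sasanishiki libraries were listed at 0, so the 18 libraries of the other lines and the 6 of Sasanishiki stood far apart, with or without cold. Os02g0467200 had the same form, with 124 to 177 in Nipponbare, 97.7 to 137 in PL9, 112 to 223 in Lambayeque1 and 0 in every Sasanishiki library. Os07g0136500 lay at 184 to 305 in Nipponbare, 205 to 255 in PL9 and 173 to 365 in Lambayeque1, and at 0 to 0.153 in Sasanishiki.

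Os12g0575300 and its neighbour Os12g0575400 carried identical values in all 24 libraries, from 254 to 603 in Nipponbare, and at most 0.122 in Sasanishiki. They cannot be counted as separate measurements. The same held for Os06g0100550 with Os06g0100700 and for Os06g0721900 with Os06g0723650, so that 6 members formed 3 identical sets.

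One member of this pattern is given by name, OsMADS56 (Os10g0536100, on chromosome 10), singled out after its values had been seen. The name was checked only by chromosome and gene order in the reference table. OsMADS56 encodes a MADS-box transcription factor of the SOC1-like group, which is known in rice for a part in flowering time under long days. Untreated values were 146, 112 and 119 in Nipponbare, 94.4, 118 and 111 in PL9, and 88.6, 93.8 and 107 in Lambayeque1. After cold they were 55.8, 79.2 and 86.8 in Nipponbare, 79.7, 128 and 91.4 in PL9, and 75.3, 61.6 and 63.0 in Lambayeque1. The 6 Sasanishiki libraries were all listed at 0. The cold values lay below all untreated values in Nipponbare and Lambayeque1, and overlapped them in PL9.

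In limma's test OsMADS56 fell with cold in Nipponbare by 0.77 on the log2 scale (SE 0.17, n = 3 in each treatment). The adjusted p was 0.00288, and 0.045 with the 6 libraries of Nipponbare fitted alone. In Lambayeque1 OsMADS56 fell by 0.53 (SE 0.17, adjusted p = 0.0353). With the 6 libraries of that line fitted alone the adjusted p was 0.0503. Leaving out untreated library 2 or 3 or cold library 2 or 3 of Lambayeque1 also ended that call, with adjusted p-values of 0.0639 to 0.125. The PL9 change was -0.14 (SE 0.17, adjusted p = 0.647). The difference in response between Nipponbare and PL9 was -0.64 (SE 0.25, adjusted p = 0.147), which does not show that the lines differ.

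Among the 28 members on in Sasanishiki and off in the other lines, Os07g0115200 had the highest floor. Its Sasanishiki values were 90.4, 95.9 and 90.7 untreated and 89.1, 108 and 90.9 after cold. In the other 18 libraries it stayed between 0 and 0.145. The Sasanishiki libraries of both treatments lay close together and overlapped. Os03g0282232 was more variable, with 231, 146 and 75.9 in untreated Sasanishiki and 68.1, 51.6 and 84.4 after cold, and a single value above 0 elsewhere, 0.403 in cold Nipponbare library 3. Its neighbour Os03g0282300 had the same pattern at lower levels, with 62.8, 36.9 and 10 untreated and 16.9, 10.5 and 21.2 after cold. Os08g0300501 had 104, 81.9 and 87.6 untreated and 50.7, 54.6 and 60.0 after cold in Sasanishiki, and at most 0.23 in any other line.

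Sasanishiki shared its off state with PL9 for another group. Os09g0467700 had untreated values of 101, 77.7 and 93.3 in Nipponbare and 80.5, 91.2 and 87.1 in Lambayeque1. Its cold values were 77.6, 90.1 and 76.5 in Nipponbare and 111, 93.9 and 101 in Lambayeque1, while Sasanishiki stayed at or below 0.074 and PL9 at or below 0.145. Nipponbare and Lambayeque1 thus overlapped with each other, and neither overlapped with Sasanishiki or PL9. Os11g0233400 ran from 56.2 to 76.3 in Nipponbare and from 48.1 to 79.8 in Lambayeque1, with PL9 at 0.117 to 0.476 and Sasanishiki at 0 throughout.

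Apart from those 28, no pattern in which Sasanishiki was not off held more than 9 members. Among the 7 members off in PL9 and on in the other lines, Os01g0149400 had untreated values of 57.6, 88.8 and 60.6 in Nipponbare, 197, 152 and 153 in Sasanishiki and 109, 91.6 and 148 in Lambayeque1. After cold it had 175, 73.8 and 67.0 in Nipponbare, 122, 109 and 114 in Sasanishiki and 113, 90.2 and 133 in Lambayeque1. PL9 was listed at 0 in all 6 libraries. Nipponbare lay below Sasanishiki without treatment, and the 3 on lines overlapped after cold.

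Nipponbare, the line of the reference genome, was off for 79 members, and for 20 of them it was the single off line. Os11g0206000 was on in Sasanishiki at 56.8 to 77.6 and in Lambayeque1 at 66.2 to 93.6, off in PL9 at 0 throughout, and off in Nipponbare with a highest value of 0.162. Os11g0471100 was on in PL9 at 25.6 to 42.7 and in Lambayeque1 at 31.8 to 43.7, and was listed at 0 in all 12 libraries of Nipponbare and Sasanishiki. Os11g0413800 was on in Sasanishiki and PL9, and listed at 0 in all 12 libraries of Nipponbare and Lambayeque1. Its levels were 31.0, 31.6 and 27.1 in untreated Sasanishiki and 72.4, 49.4 and 62.5 in untreated PL9. It is the single member of its pattern, and the PL9 libraries lay above those of Sasanishiki.

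Some members were on in 1 line and off in the remaining lines. Besides the 28 of Sasanishiki there were 4 of Lambayeque1, 2 of PL9 and 2 of Nipponbare. Os12g0228500 lay at 26.5 to 66.7 in Lambayeque1 and at or below 0.0664 elsewhere. Os04g0112100 lay at 29.1 to 56.9 in PL9 and at or below 0.344 elsewhere, and Os11g0625400 at 12.2 to 33.5 in Nipponbare and at or below 0.275 elsewhere.

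**Figure D3:**
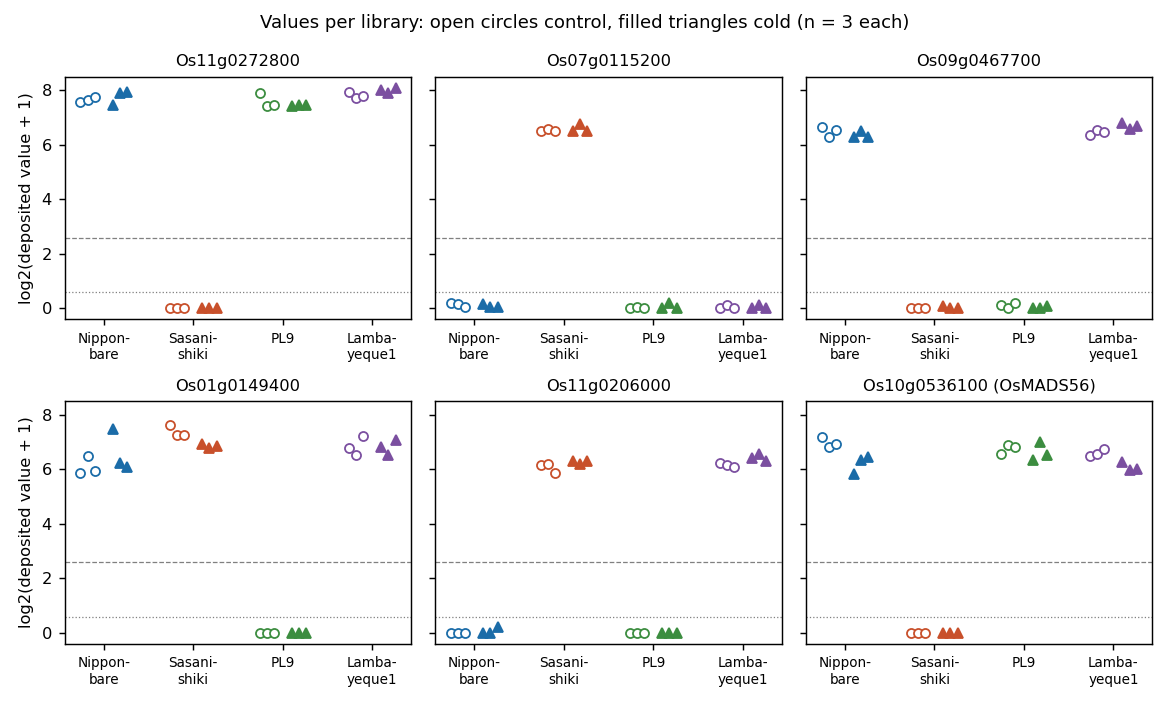
Values of 6 members in each library as log2(deposited value + 1), by line, with untreated libraries as open circles and cold libraries as filled triangles (n = 3 each). The dashed line marks a value of 5 and the dotted line a value of 0.5, and each gene's off lines lie under the dotted line in both treatments.

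The rule asks for the same state in both treatments in the lines that make a gene a member, so a change of state with cold could be looked for only in the 280 cases of a member in a line between the thresholds. In 161 of these all 6 libraries were at or above 0.5 and some reached 5, in 74 all were under 5 and some under 0.5, and in 22 all lay from 0.5 to under 5. The remaining 23 held libraries both under 0.5 and at 5 or more. In 0 of the 280 cases were all 3 libraries of one treatment at 5 or more and all 3 of the other below 0.5.

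In 13 of the 23 cases a single group held both states among its 3 libraries, 6 of them in PL9, 5 in Lambayeque1, 2 in Nipponbare and 0 in Sasanishiki. In the other 10 the low libraries were of one treatment and the high libraries of the other, with the high ones cold in 6 and untreated in 4. Both examples that follow, from these 10, were chosen after their values had been seen. Os07g0297100 in PL9 had 8.30, 8.50 and 5.52 untreated and 0.744, 0 and 0.366 after cold, so that it was at 5 or more without cold and below 1 with it. Os03g0683300 went the other way in PL9. In Nipponbare it had 174, 47.6 and 244 untreated and 1309.6, 1675 and 3530.2 after cold, and in Lambayeque1 21.2, 16.9 and 6.61 untreated and 166, 1271 and 291 after cold. In PL9 it was at 0, 0.0601 and 0 untreated and at 0.749, 1785 and 254 after cold. The 6 Sasanishiki libraries were at 0. Every cold value of PL9 was above every untreated one, and cold library 1 of PL9 stayed below 1 while cold libraries 2 and 3 did not.

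Members were unevenly placed along the genome, a property that the rule did not use. The chromosome and the order of genes are part of the identifier, and no coordinates were used because the reference table belongs to another assembly. On chromosome 11, 58 of the 614 identifiers on in any line were members (9.45%), and on chromosome 12, 45 of 667 (6.75%). The shares on the other chromosomes lay between 2.23% on chromosome 2 and 4.89% on chromosome 9. Chromosome 11 holds 13.2% of the members and 5.2% of all identifiers on in any line. Chromosomes 11 and 12 of rice are known for a shared recent duplication at the ends of their short arms and for many resistance genes. These are counts over genes that are not independent of their neighbours, and no test was run on them.

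**Figure D4:**
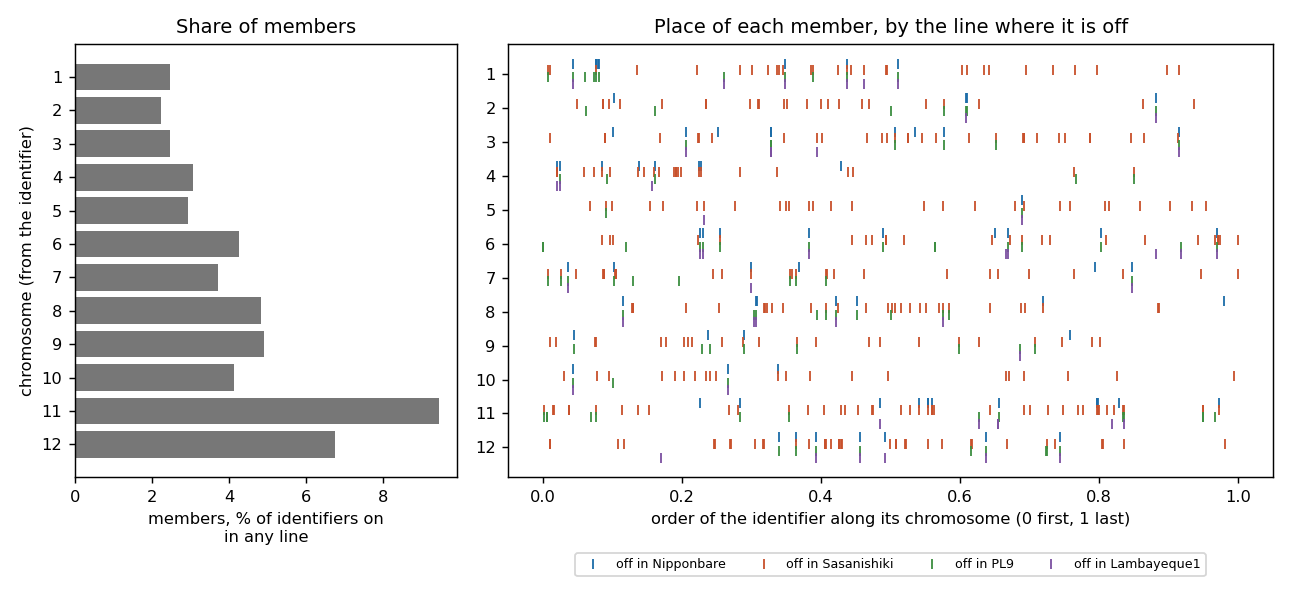
Left, members as a percentage of the identifiers on in any line, by chromosome, with 9.45% on chromosome 11 and 6.75% on chromosome 12 as the longest bars. Right, the place of each member in the order of identifiers along its chromosome (0 first, 1 last), with a tick coloured by each line where it is off.

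Members also lay near each other. Of the 441, 120 (27.2%) had another member within 5 identifiers, against 987 of the 11331 other identifiers on in any line (8.70%). There were 26 runs of members with neighbouring identifiers, holding 53 members. The longest, Os03g0144100, Os03g0144150 and Os03g0144200, had 3 members off in Sasanishiki. The middle gene of that run was the strongest, with 65.5 to 233 in Nipponbare, 88.7 to 145 in PL9, 69.4 to 246 in Lambayeque1 and 0 in Sasanishiki. Of the 26 runs, 24 shared an off line and 11 had the same pattern throughout. In 2 of them the neighbours were a pair with identical values, and with each identical set counted once there were 24 runs, 22 of them with a shared off line and 9 with 1 pattern. The share of members with another within 5 identifiers was then 26.5%, against 8.70% of the other identifiers. Members often share an off line wherever they lie, since 77.3% of them were off in Sasanishiki and 41.5% had the largest pattern. Whether neighbours share one more often was not tested.

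In 4 runs neighbours were in opposite states. Os08g0367300 was on in Sasanishiki and off in PL9, and the next identifier, Os08g0367400, was off in Sasanishiki and on in the other lines. Os09g0390400 was off in Sasanishiki and on in the other lines, while Os09g0391501 was on in Sasanishiki and off in PL9. Dividing the identifiers of each chromosome into windows of 50, at least 5 members fell into 2 of 762 windows. One began at Os11g0100100 at the start of chromosome 11, with 5 members among 18 identifiers on in any line. The other began at Os12g0241001 on chromosome 12, with 5 members among 15.

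Identifiers that do not end in 00 are, by the convention of the rice annotation, mostly genes added between those numbered first. They made up 24% of the members (106), 10.6% of the identifiers on in any line (1247) and 24.5% of all identifiers on 1 row. Among members on in Sasanishiki the share was 30.4%, in Nipponbare 23.6%, in PL9 21.1% and in Lambayeque1 20.1%.

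A list of 52 genes known to vary between rice cultivars was set beside the members. It holds resistance genes such as xa5 and xa13, flowering genes such as Hd1 and Hd3a, genes of grain and plant form such as ALK, GW2 and IPA1, and the cold tolerance genes COLD1 and LTG1. Of the 35 that stand on 1 row, 12 have a name checked against the reference table. None of the 35 was a member, though 8 were on in at least 1 line and 21 were off in at least 1 line. With 3.75% of all identifiers on in any line being members, 0 of 8 is little to read from.

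The effect of cold within a line was not used by the rule and could be tested in the lines where members were on. In Nipponbare, 88 of 276 members passed the test (31.9%), 62 of them higher and 26 lower after cold, where 25.0% of all identifiers on in Nipponbare passed. In Sasanishiki 23 of 79 passed (29.1%), 14 higher and 9 lower, against 23.8%. In PL9 43 of 256 passed (16.8%), 26 higher and 17 lower, against 14.4%. In Lambayeque1 81 of 303 passed (26.7%), 65 higher and 16 lower, against 20.9%. Over all 22495 identifiers tested, on or not, the shares were 26.4% in Nipponbare, 25.1% in Sasanishiki, 17.3% in PL9 and 22.8% in Lambayeque1.

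These counts rest on a spread shared by all groups, and members have off lines in which values barely vary. The median SD of a member's log2 values within a group was 0.223 in lines where it was on and 0 where it was off. With the 6 libraries of each line fitted alone, 57 members passed in Nipponbare (20.7%, background 20.4%) and 8 in Sasanishiki (10.1%, background 10.4%). In PL9 7 passed (2.73%, background 4.51%) and in Lambayeque1 55 (18.2%, background 16.4%). The members' share of changed genes was thus close to that of all identifiers on in Nipponbare, Sasanishiki and Lambayeque1. In PL9 it was below the background in the line fitted alone, on 7 calls, and above it in the fit of all libraries. The differences from the background were not tested.

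More members were higher than lower after cold in every line in both fits, by 1 member in PL9 fitted alone, while in the background the shares were nearer to each other. These differences from the background were not tested. In Lambayeque1 21.5% of the members were higher and 5.28% lower after cold, where 10.1% and 10.9% of all identifiers on there were. Fitted alone, the line gave 46 members higher (15.2%) and 9 lower (2.97%), with 8.21% and 8.23% in the background. The median log2 change of the members was 0.20, and that of all identifiers on was -0.03. In Nipponbare 22.5% of the members were higher and 9.42% lower, where 13.3% and 11.7% of all identifiers on were, and the medians were 0.10 and 0.04. Fitted alone, Nipponbare gave 41 higher (14.9%) and 16 lower (5.80%), with 11.0% and 9.35% in the background. In Sasanishiki 17.7% of the members were higher and 11.4% lower (background 10.9% and 13.0%), and in PL9 10.2% and 6.64% (background 7.69% and 6.67%). Fitted alone, Sasanishiki gave 6 higher (7.59%) and 2 lower (2.53%), with 5.03% and 5.39% in the background. PL9 gave 4 (1.56%) and 3 (1.17%), with 2.21% and 2.31%. The medians of the members there were 0.05 and 0.02, with -0.03 and -0.02 over all identifiers on. Members are weaker than the average identifier, so a comparison among identifiers with a median under 30 in the line was added after the data had been seen. In Lambayeque1 20.7% of such members were higher and 3.96% lower, against 10.1% and 9.34% of such identifiers, and in Nipponbare 21.3% and 7.92%, against 11.9% and 11.3%.

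**Figure D5:**
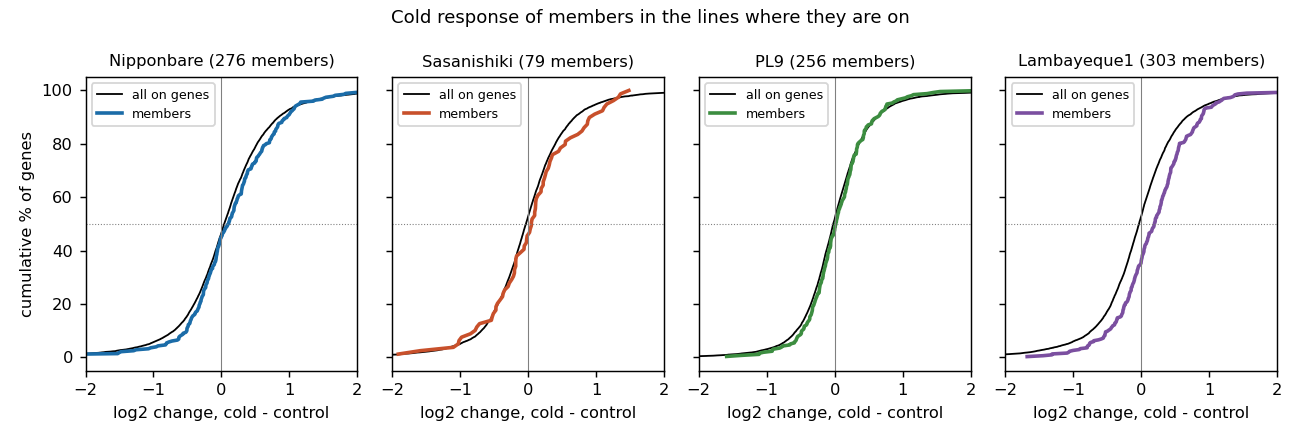
Cumulative share of genes by log2 change from control to cold in each line, for the members on there (thick coloured line) and for all identifiers on there (thin black line). The members' curve lies to the right of the black one in Lambayeque1, with a median of 0.20 against -0.03, and the curves nearly coincide in PL9.

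Anthers are a mixture of tissues, and in bulk samples fewer cells of a type and less RNA per cell cannot be told apart. The summed level of 9 anther markers was 7125 to 20250 in the 12 untreated libraries and 38570 to 112600 in the 12 cold ones. The tapetum lipid transfer gene OsC6 had a median of 5597 untreated and 28630 after cold, and OsC4 38.1 and 15960. The stamen identity gene OsMADS16 had medians of 1347 and 1404, and OsMADS2 840.9 and 615.7. The 3 markers of other floret parts summed to 0.529 to 15.4 untreated and 2.01 to 13 after cold. The part of these shifts in the members' cold response was not tested.

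Single members changed strongly. Os06g0597250, off in Sasanishiki and PL9, fell from 108, 102 and 52.0 to 9.77, 8.79 and 8.62 in Nipponbare, and from 37.2, 73.5 and 32.3 to 14.5, 12.8 and 12.5 in Lambayeque1. The groups did not overlap in either line. The log2 change was -3.06 in Nipponbare (SE 0.25, adjusted p = 1.27e-07) and -1.68 in Lambayeque1 (SE 0.25, adjusted p = 1.01e-04). The difference between the lines, -1.38, did not pass (adjusted p = 0.0904). Os07g0432566, also off in Sasanishiki and PL9, rose from 27.7, 38.7 and 28.2 to 172, 67.1 and 119 in Nipponbare, and from 19.6, 22.4 and 16 to 114, 75.7 and 132 in Lambayeque1. Its log2 change was 1.8 in Nipponbare (SE 0.25, adjusted p = 3.58e-05) and 2.39 in Lambayeque1 (SE 0.25, adjusted p = 3.50e-06). Both genes had all 12 libraries of Sasanishiki and PL9 below 0.1, and these enter the spread behind the adjusted p-values above. With each line fitted alone, Os06g0597250 had 0.00305 in Nipponbare and 0.0163 in Lambayeque1. Os07g0432566 had 0.01996 in Nipponbare and 0.00323 in Lambayeque1.

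Os11g0475500 belonged to the largest pattern and, by the fit of all libraries, rose in all 3 lines where it was on. It went from 8.94, 9.60 and 14.8 to 62.8, 32.8 and 46.8 in Nipponbare. The log2 change there was 1.99 (SE 0.25, adjusted p = 1.72e-05, and 0.00903 with Nipponbare fitted alone). The log2 changes were 1.07 in PL9 (adjusted p = 0.0079) and 1.1 in Lambayeque1 (adjusted p = 0.00423). For PL9 and Lambayeque1 the fit of the line alone is not given for this gene. In the fit of all libraries, 13 of the 193 members on in 3 lines rose in all 3 and 3 fell in all 3. A further 1 rose in one line and fell in another, and 103 passed in none. Matching counts over all identifiers on in 3 lines, or with each line fitted alone, are not given. The numbers therefore cannot be set against a background.

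In Sasanishiki the largest called rises were those of Os05g0477666, Os11g0620800 and Os04g0115200. The first and the last of these were off in the other lines. Os05g0477666 went from 10.5, 8.48 and 9.69 to 23.2, 27.2 and 36.5 (log2 change 1.48, SE 0.13, adjusted p = 8.96e-07). Os04g0115200 went from 5.56, 5.58 and 6.23 to 14.5, 19.3 and 14.7 (log2 change 1.33, SE 0.13, adjusted p = 1.79e-06). Every cold library was above every untreated one for both. These adjusted p-values rest on a spread that includes the lines where both genes were off. With Sasanishiki fitted alone they were 0.0183 for Os05g0477666 and 0.0152 for Os04g0115200. Os11g0620800 rose by 1.36 (SE 0.43, adjusted p = 0.026, and 0.0653 with Sasanishiki alone). Leaving out any of 4 libraries also ended that call, with adjusted p-values of 0.072 to 0.112. The largest called fall was that of Os06g0344201 (log2 change -1.1, SE 0.2, adjusted p = 6.2e-04, and 0.071 with Sasanishiki alone). Os03g0282232, described above, fell by 1.03 on the log2 scale (SE 0.26, adjusted p = 0.00781). With Sasanishiki fitted alone its adjusted p was 0.191, and without untreated library 1 its log2 change was -0.65 (adjusted p = 0.0604).

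In PL9 the largest changes did not hold in the fit of that line alone. Os11g0620800, off in Nipponbare, had 7.66, 17.0 and 26.8 untreated and 32.3, 135 and 95.6 after cold in PL9. Its log2 change was 2.22 (SE 0.43, adjusted p = 0.00207), and the adjusted p was 0.117 with PL9 alone. Os02g0123116 had 506, 298 and 150.5 untreated and 121, 68.6 and 98.8 after cold (log2 change -1.59, SE 0.43, adjusted p = 0.0159, and 0.117 with PL9 alone). That call was also lost without untreated library 1 or 2 or cold library 2 of PL9, with adjusted p-values of 0.0522 to 0.106. Neither gene's untreated and cold values overlapped in PL9.

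Responses were then compared between lines in which a member was on. Between Nipponbare and PL9, 8 of 200 members differed in their response to cold (4.00%, background 2.30%). Between PL9 and Lambayeque1 6 of 212 did (2.83%, background 0.644%), and between Nipponbare and Lambayeque1 2 of 227 (0.881%, background 0.215%). For the pairs with Sasanishiki 0 of 7, 0 of 7 and 0 of 13 members passed, too few to read. In all 10 members differed in at least 1 pair. With only the 12 libraries of the lines compared, 1 member did, Os11g0105000, for Nipponbare and Lambayeque1. The backgrounds in those fits were 1.64% for Nipponbare and PL9, 0.42% for Nipponbare and Lambayeque1 and 0.211% for PL9 and Lambayeque1. For Sasanishiki they were 1.75% with Nipponbare, 0.0705% with PL9 and 1.06% with Lambayeque1, and in the fit of all libraries 3.16%, 0.729% and 1.94%. Os11g0105000 fell in Nipponbare from 45.9, 64.9 and 41.6 to 8.5, 5.43 and 9.92. In Lambayeque1 it had 13.4, 14.4 and 7.91 untreated and 12.8, 11.4 and 16.8 after cold. The difference in log2 change was -2.75 (SE 0.39, adjusted p = 0.0149) in the fit of the 12 libraries of both lines. In the fit of all 24 libraries it had the same size with an adjusted p of 0.102. Its PL9 values, 1.27 to 19.2, enter the spread in the latter fit, and their part in the lost call was not tested.

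Untreated levels between lines where a member was on were also outside the rule. Between Nipponbare and PL9, 58 of 200 members differed (29.0%, background 24.6%), between PL9 and Lambayeque1 28 of 212 (13.2%, background 9.39%), and between Nipponbare and Lambayeque1 26 of 227 (11.5%, background 5.39%). With the 12 libraries of each pair fitted alone the counts were 51 of 200, 17 of 212 and 21 of 227, with backgrounds of 23.1%, 8.05% and 7.92%. The members' shares in these fits lay closer to the background than in the fit of all libraries, and about at it for PL9 and Lambayeque1. Differences from the background were not tested. For Sasanishiki, 4 of 7 members on in both lines differed from Nipponbare, 4 of 7 from PL9 and 3 of 13 from Lambayeque1, with backgrounds of 30.4%, 15.3% and 26.2%. Fitted by pair, 4, 3 and 3 differed, with backgrounds of 27.1%, 11.3% and 21.1%.

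Os01g0105400 showed the largest such difference between Nipponbare and PL9. Untreated it had 27.5, 29.8 and 27.0 in Nipponbare, 29.8, 23.4 and 31.3 in Lambayeque1, and 6.06, 5.45 and 6.05 in PL9, and it was at 0 in Sasanishiki. PL9 lay below Nipponbare by 2.09 on the log2 scale (SE 0.14, adjusted p = 3.02e-09, and 9.4e-06 with both lines fitted alone). Nipponbare and Lambayeque1 overlapped. The gene therefore had a high, a low and an off level among the 4 lines. Os08g0338000 had 62.0, 57.9 and 59.5 in untreated Lambayeque1 and 16.6, 20.2 and 15.2 in Nipponbare. The log2 difference was -1.74 for Nipponbare minus Lambayeque1 (SE 0.12, adjusted p = 5.22e-09, and 2.2e-05 with both lines fitted alone). Os10g0137100, off in PL9, had 49.5, 44.9 and 50.7 in untreated Sasanishiki and 16.7, 9.74 and 15.9 in Lambayeque1. Sasanishiki was higher by a log2 difference of 1.74 (SE 0.17, adjusted p = 7.93e-08, and 3.39e-05 with both lines fitted alone).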

How the data were processed

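RNA of rice anthers was sequenced in 24 libraries, 3 for each of 8 groups named by the titles. The authors' deposited signal values are headed TPM, and kallisto 0.46.2, sleuth 0.30.0 and IRGSP-1.0 are named per the submitters' processing notes. Column totals ran from 1197400 to 1722900, so the deposited values were treated as a signal on the authors' scale, and depth is unknown. Of 37910 identifiers, 5399 fill several rows whose values repeat across libraries, and these were left out. Members and gene lists were chosen with earlier results of these data known.

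The 8 group means were fitted to log2(value + 1) of 24 libraries with limma 3.58.1 in R 4.3.3 (lmFit, eBayes with a trend), for the 22495 identifiers that reached 1 in 3 or more libraries. All 441 members were among them. Fold changes on this scale understate those of low genes. Adjusted p-values are Benjamini-Hochberg over all identifiers tested, two-sided, with a threshold of 0.05. The fit was run on simulated data in which each gene had the same spread in all groups. Members vary less in lines where they are off, so that run does not vouch for their tests. Python 3.11.15, pandas 2.3.3, numpy 2.4.6 and matplotlib 3.10.9 handled tables and figures. Members named are those with a checked name, those highest in their lowest on library of each pattern, those with the largest called changes or differences, those in the longest runs and those nearest the thresholds; a selection of these is printed, and others outside the rule were chosen after their values were seen. Names were checked by chromosome and gene order within 2% of the chromosome in a table of assembly ASM3414082v1, which lacks the identifiers used by the files. Alternatives were the rule's thresholds, the pseudocount, the filter, scaling, a replicate block, each line or pair of lines alone, repeated identifiers read back, and each library left out.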

Additional observations from a re-analysis of the deposited data

Results flagged for a closer look

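For 10 members the cold response differed between lines by the test of the difference itself, in the fit of all 24 libraries. The 2 largest called differences within each pair of lines are given, and they belong to 4 members. These were on in Nipponbare, PL9 and Lambayeque1 and off in Sasanishiki. The 6 values given are differences of log2 changes. For Os07g0560100 the difference was -2.01 for Nipponbare minus PL9 (SE 0.39, adjusted p = 0.00618) and -1.75 for Nipponbare minus Lambayeque1 (adjusted p = 0.0472). It had 43.1, 19.0 and 21.0 untreated and 11.3, 8.41 and 11.4 after cold in Nipponbare, and 8, 5.78 and 9.71 untreated and 8.78, 14.3 and 19.9 after cold in PL9. For Os05g0547800 the difference was 1.92 for Nipponbare minus PL9 (SE 0.38, adjusted p = 0.00697) and -1.67 for PL9 minus Lambayeque1 (adjusted p = 0.0423). Its PL9 values were 28.2, 23.8 and 13 untreated and 9.48, 5.25 and 7.89 after cold, and its Nipponbare values of both treatments overlapped. For Os09g0365100 the difference was 1.51 for Nipponbare minus Lambayeque1 (SE 0.33, adjusted p = 0.0348), and for Os06g0658200 it was -1.67 for PL9 minus Lambayeque1 (SE 0.33, adjusted p = 0.0204). With only the 12 libraries of the lines compared, the adjusted p of these 6 differences lay between 0.0605 and 0.127, and none passed. In the fit of all libraries, both Nipponbare minus PL9 differences kept their call without any 1 library. The others were lost when certain single libraries were left out, with adjusted p-values up to 0.139. These were 15 libraries for Os07g0560100 in Nipponbare minus Lambayeque1, 12 for Os09g0365100, 14 for Os05g0547800 in PL9 minus Lambayeque1 and 4 for Os06g0658200.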

How the results depend on the processing

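The 441 members became 164 with thresholds of 10 and 0.1, and 943 with 2 and 1. Members off in Sasanishiki made up 77.4% and 72.2% of these. With 10 and 0.1 the counts passing the cold test were 38 in Nipponbare, 8 in Sasanishiki, 19 in PL9 and 37 in Lambayeque1, and those differing between lines were 2 in response and 33 in level. With 2 and 1 they were 185, 50, 92 and 154, and 26 and 191. The set of members changes with these thresholds, and no shares or backgrounds are given for them. The counts therefore do not show whether the share of members that passed changed. A pseudocount of 0.1, with the members unchanged and no background given, led to 6 in Sasanishiki, 21 in PL9, 48 in Lambayeque1 and 6 differing in response. The libraries of the lines compared alone gave 57 in Nipponbare, 8 in Sasanishiki, 7 in PL9 and 1 differing in response. Without each library in turn, members numbered 443 to 470. The rule then asks for fewer libraries, so this number could only stay or rise, and it is no check on the members. Cold counts ran from 60 to 99 in Nipponbare, 18 to 30 in Sasanishiki, 23 to 47 in PL9 and 54 to 90 in Lambayeque1. Differences in response ran from 6 to 18, and in level from 63 to 88. The PL9 count was 23 without PL9 control replicate 1, 27 without control 2, 28 without cold 2 and 24 without cold 3. Differing responses were 6 without PL9 control 1, 16 without PL9 control 3, 18 without PL9 cold 1 and 17 without Nipponbare cold 2. The change of OsMADS56 in PL9, not past the threshold, ran from -0.33 to 0.0111 with a PL9 library left out, the latter without cold replicate 1 (adjusted p = 0.987). The cause of these shifts was not tested.

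With the replicate number as a block, 83, 23, 35 and 76 members passed in Nipponbare, Sasanishiki, PL9 and Lambayeque1, 8 differed in response and 79 in level. The replicate numbers showed no pairing that ran through all groups. Of 84 same-numbered pairs of groups, 19 had deviations correlated above 0.1, with a range from -0.53 to 0.49. Pairing of some groups is not excluded by this, as libraries 1 and 2 of PL9 and Lambayeque1 after cold each correlated at 0.49. Of the 45 tests of named members, 44 passed in the fit of all libraries. That number was set by the choice, since all but those of OsMADS56 were named because they had passed there. Of the 44, 21 missed the threshold under at least 1 alternative. By test, 19 were lost with the lines alone, 16 with some 1 library left out and 2 with the block, and the 3 sets overlap. Other alternatives also ended some of the calls, and those losses are not itemised here. Depth is unknown and limits what a value of 0 says.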

Other observations

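Identifiers on several rows were left out of the counts above because their values repeat across the columns of different libraries. Reading them back to 1 value per library, in the order of lines that fits all 5399, added 57 members. Of these 51 were off in Sasanishiki (89.5%) and 28 were on in the other lines and off in Sasanishiki, where 77.3% of the 441 members were off in Sasanishiki. The next best of the 24 orders of lines tried fitted 5359 identifiers, so few of them tell the orders apart.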
